A study of Mus musculus with 8 samples.

Results

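The breakdown of the branched-chain amino acids leucine, isoleucine and valine was examined through 10 genes in gastrocnemius, a calf muscle of mostly fast fibres, of mice lacking the histone deacetylase HDAC5. The genes were Bcat2, Bckdha, Bckdhb, Dbt, Bckdk, Ppm1k, Ivd, Mccc1, Mccc2 and Acadsb, taken by name from the platform annotation, and they are 10 of the 19938 genes measured. Each had exactly 1 probe set naming it and no other gene, so the rule, which selected on the mean signal of a gene's probe sets across all arrays, had nothing to choose between. No value of the genotype comparison entered that rule. The list itself was drawn up with earlier results of these data known, in which Bckdhb was among the changed genes, so the values of Bckdhb in particular are a description and lend no support to the list.

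The series holds 8 Affymetrix gene arrays, 4 from Hdac5 knockout mice and 4 from their wild type littermates, all aged 30 weeks, housed in groups on low-fat chow and given no treatment. HDAC5 belongs to the class IIa deacetylases, which hold back genes driven by MEF2 factors in muscle. The submitters asked how it bears on interleukin 6 and the genes that interleukin 6 regulates. The sources used here do not give the sex of the mice, the tissues in which Hdac5 was deleted or the deleted part of the gene. The samples carry numbers in the labels, with no word on whether they are separate animals, so p-values measure only the sample-to-sample spread, which may be technical. The values are log2 signals, and the number of arrays limits their precision.

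The targeted gene was lower in every knockout sample, and genes of muscle fibres were bright throughout. Hdac5 lay between 8.31 and 8.39 on the knockout arrays and between 9.76 and 9.94 on the wild type arrays (limma adjusted p = 1.74e-07). The muscle fibre genes Ckm, Acta1 and Myh4 read 14.42 or higher on every array, whereas Alb, Ttr, Umod and Slc34a1, genes of liver or kidney, had means between 6.43 and 7.72. The array medians ran from 7.69 to 7.77 and pairs of arrays correlated at 0.988 to 0.995 over all probe sets. No library was left out.

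Skeletal muscle is a main site of the first step of this pathway. A mitochondrial transaminase, encoded by Bcat2, turns the 3 amino acids into branched-chain keto acids, and the branched-chain keto acid dehydrogenase complex then decarboxylates these in the step that commits them to oxidation. The complex is built from a decarboxylase with an alpha subunit (Bckdha) and a beta subunit (Bckdhb), a core acyltransferase (Dbt) and a dehydrogenase (Dld) that it shares with other complexes. The kinase encoded by Bckdk switches the complex off by phosphorylating the alpha subunit, and the mitochondrial phosphatase encoded by Ppm1k reverses this. Beyond the complex the 3 amino acids part ways: Ivd and the carboxylase made of Mccc1 and Mccc2 act on products of leucine, and Acadsb on a product of isoleucine.

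Upstream sequences of Bckdhb, Ivd and Ppm1k, 3 of the 4 genes with the smallest p-values here, are shown beside that of Bckdha, whose product pairs with that of Bckdhb, so that their start regions can be set side by side. They come from RefSeq on build GRCm38.p6, read 5′ to 3′ on the gene's strand, and each ends at the base before the outermost annotated start of the gene. Capitals mark a match, on either strand, to 1 of the 6 motifs searched. Of the 10 genes, 9 were matched to a promoter window by symbol, all but Dbt.
Bckdhb, chr9:83924887-83925110, plus strand: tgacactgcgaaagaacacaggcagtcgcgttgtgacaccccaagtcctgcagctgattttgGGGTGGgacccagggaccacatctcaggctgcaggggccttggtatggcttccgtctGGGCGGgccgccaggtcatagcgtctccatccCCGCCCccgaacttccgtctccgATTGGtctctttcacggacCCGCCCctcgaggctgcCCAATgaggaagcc
Ivd, chr2:118861744-118861958, plus strand: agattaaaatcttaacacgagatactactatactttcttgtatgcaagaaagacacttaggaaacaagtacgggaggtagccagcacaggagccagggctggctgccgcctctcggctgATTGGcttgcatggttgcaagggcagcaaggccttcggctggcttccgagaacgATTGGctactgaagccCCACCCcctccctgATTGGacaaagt
Ppm1k, chr6:57535553-57535737, minus strand: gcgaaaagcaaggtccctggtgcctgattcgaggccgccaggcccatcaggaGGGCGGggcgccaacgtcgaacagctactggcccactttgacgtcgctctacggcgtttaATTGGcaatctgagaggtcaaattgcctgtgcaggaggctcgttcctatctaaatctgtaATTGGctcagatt
Bckdha, chr7:25658783-25659011, minus strand: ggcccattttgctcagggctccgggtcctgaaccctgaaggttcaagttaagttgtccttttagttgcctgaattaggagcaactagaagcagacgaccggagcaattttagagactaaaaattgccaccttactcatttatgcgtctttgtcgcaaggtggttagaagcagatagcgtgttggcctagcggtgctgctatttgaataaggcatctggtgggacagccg
The Bckdhb stretch held 3 copies of the GC box GGGCGG, 1 CCACCC and 2 CCAAT boxes. The Ivd stretch held 3 CCAAT boxes and 1 CCACCC, the Ppm1k stretch 2 CCAAT boxes and 1 GGGCGG, and the Bckdha stretch none of the motifs.

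The search took the first 250 bases of each promoter window, on both strands and with overlapping copies counted. Unlike the printed stretches, these bases were not cut at the outermost annotated start, so they can run into the gene. The Ivd window, for example, held 4 CCAAT boxes and its printed stretch 3. CCAAT was present in 6 of the 11 windows of these 9 genes, 1 each for Bckdhb, Bckdk, Ivd, Mccc1, Mccc2 and Ppm1k, and in 33.8% of all 32851 promoter windows. GGGCGG was present in 4 of the 11 (32.7% of all windows), CCACCC in 3 (28.1%) and TATAAA in 1, that of Bckdk (12.4%). Neither AAGGTCA, the core element bound by oestrogen-related receptors (4.08% of all windows), nor the MEF2 motif, in which a TATAAA can lie (2.92%), was found in the windows of these genes. CCAAT was added to the search after the sequences had been read, and a match is a description of the letters, not a site.

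In knockout muscle 9 of the 10 genes had a lower mean, against 48.6% of all genes measured. Bckdhb alone passed the test, a limma adjusted p under 0.05 over all 19938 genes, which 0.0251% of all genes passed downward; no gene of the list rose. In 3 genes, Bckdhb, Dbt and Ivd, every knockout sample lay below every wild type sample, which held for 1.99% of all genes. In none of the 10 did every knockout sample lie above every wild type sample, which held for 2.91% of all genes. At an unadjusted limma p under 0.05, 4 were lower (Bckdhb, Ivd, Dbt and Ppm1k) and 0 were higher, against 3.18% and 4.72% of all genes. The median difference of the list was -0.14, and that of all genes was 0.0030. With Bckdhb set aside, 8 of the other 9 had a lower mean, 2 had groups that did not overlap, and the median difference was -0.13.

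**Figure D1:**
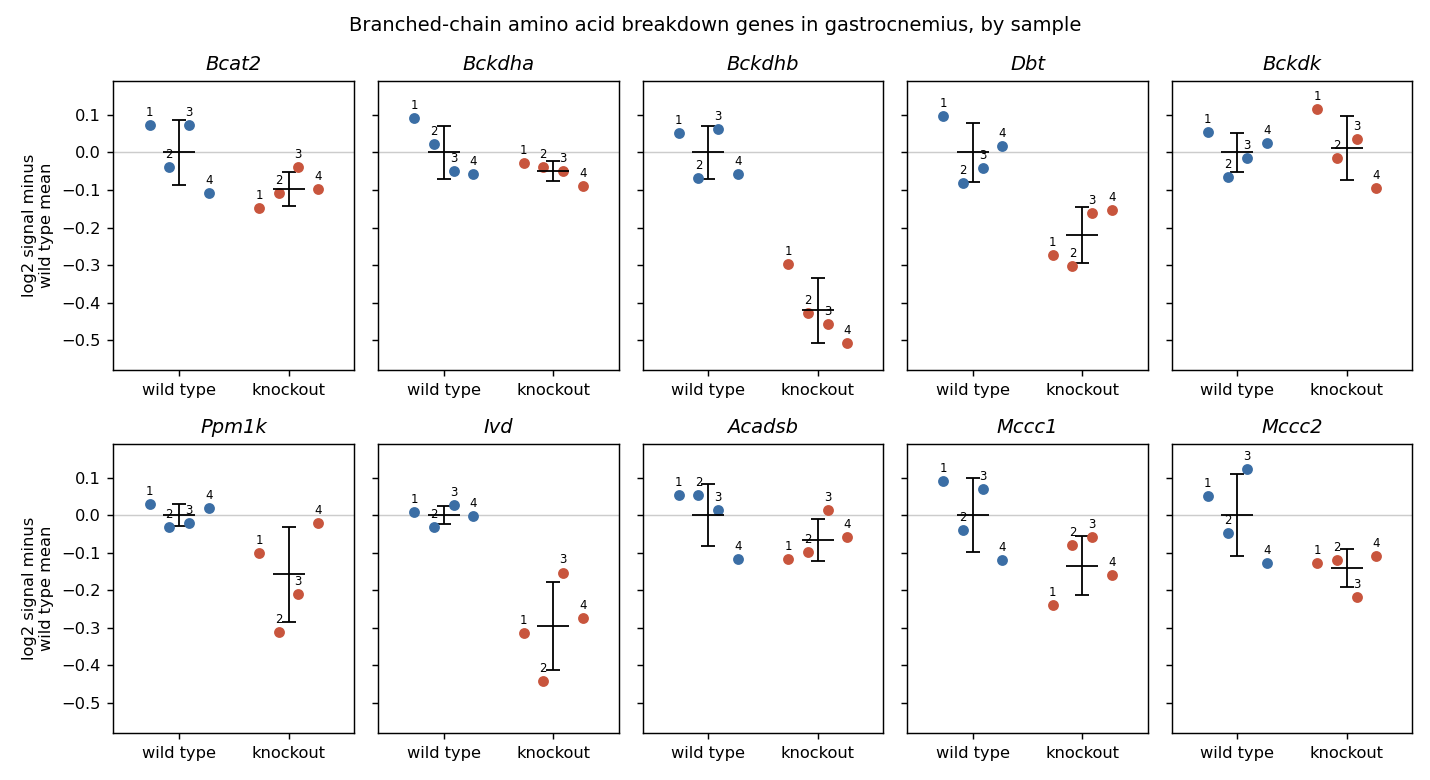
Log2 signal of each of the 10 genes, as the distance from that gene's wild type mean, in the 4 wild type and 4 Hdac5 knockout samples (points, numbered by sample); the bars give the mean and SD of each genotype. The groups are apart for Bckdhb, Dbt and Ivd and overlap for the other genes.

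**Figure D2:**
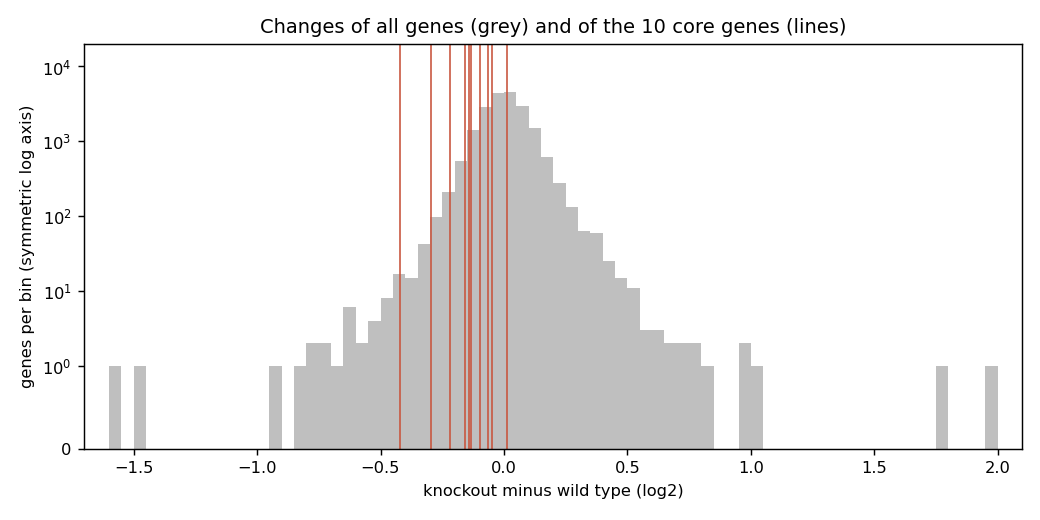
Number of genes per bin of 0.05 in the knockout minus wild type difference (log2) over all 19938 genes, on a symmetric log axis that starts at 0, with a line for each of the 10 genes. The lines run from -0.42 (Bckdhb) to 0.01 (Bckdk), and 9 lie below 0.

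The step that commits the keto acids to oxidation held the difference that passed. Bckdhb, the beta subunit of the decarboxylase, read 9.73, 9.60, 9.57 and 9.52 in knockout samples 1 to 4 and 10.08, 9.96, 10.09 and 9.97 in wild type samples 1 to 4. The highest knockout sample lay below the lowest wild type sample. Bckdhb fell by 0.42 on the log2 scale (SE 0.064, 95% interval -0.56 to -0.28, limma adjusted p = 0.0439), from 10.03 ± 0.07 to 9.61 ± 0.09 (SD, n = 4 each), which put knockout muscle at 74.7% of wild type (interval 67.9% to 82.2%). As the groups did not overlap, an exact 2-sided permutation test over the 70 arrangements of the samples could only give its smallest value, p = 0.0286. Bckdhb was known from earlier results of these data to differ, so these p-values describe it and add no support. The call was lost in 7 of the 8 fits with 1 sample left out. Bckdhb passed only without knockout sample 1 (adjusted p = 0.0406), and the adjusted p was 0.0668 to 0.136 without knockout sample 2, 3 or 4 or any 1 of the wild type samples. With the arrays centred on their medians it was 0.0531. The difference itself stayed between -0.46 and -0.39 in the fits without 1 sample.

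Dbt, the acyltransferase that forms the core of the complex, read 10.64, 10.61, 10.75 and 10.76 in the knockout samples and 11.01, 10.83, 10.87 and 10.93 in the wild type samples. The groups did not overlap, with knockout sample 4 closest to wild type sample 2. The difference was -0.22 (SE 0.063, 95% interval -0.36 to -0.08), which did not pass over all genes (limma adjusted p = 0.338). Bckdha, the alpha subunit that carries the phosphorylation sites, read 11.08, 11.07, 11.06 and 11.02 against 11.20, 11.13, 11.06 and 11.05. Only wild type samples 1 and 2 stood above the knockout samples, and the difference was -0.05 (SE 0.056, interval -0.17 to 0.07, limma adjusted p = 0.878). Dld, the shared dehydrogenase, differed by 0.04 (SE 0.058, adjusted p = 0.921).

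Within each array the log2 value of Bckdha, the partner subunit, was also taken from that of Bckdhb, since the level of 1 probe set cannot be set against that of another but a change in this signed value can be compared between genotypes. Bckdhb minus Bckdha was -1.45 ± 0.07 in knockout and -1.08 ± 0.09 in wild type muscle (SD, n = 4 each), a difference of -0.37, with all 4 knockout samples below all 4 wild type samples (exact 2-sided permutation p = 0.0286, the smallest possible; 0.0857 after Benjamini-Hochberg adjustment over the 3 pairs compared). Bckdhb minus Dbt was -1.08 in knockout and -0.88 in wild type muscle, with overlapping samples (exact permutation p = 0.0857, adjusted 0.129). Bckdk minus Ppm1k, the kinase and the phosphatase, was 2.34 in knockout and 2.17 in wild type muscle, again with overlapping samples (exact permutation p = 0.143, adjusted 0.143). None of the 3 passed after adjustment, and the pairs were picked with these values known.

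Neither the kinase nor the phosphatase of the complex passed the test over all genes. Bckdk, which switches the complex off, read 12.27, 12.14, 12.19 and 12.06 in the knockout samples and 12.21, 12.09, 12.14 and 12.18 in the wild type samples, with the knockout samples at both ends of the range. Its difference was 0.01 (SE 0.061, 95% interval -0.12 to 0.14, limma adjusted p = 0.979), and its sign turned when knockout sample 1 (-0.02) or wild type sample 2 (-0.01) was left out. Ppm1k, which switches the complex on, read 9.88, 9.67, 9.77 and 9.96 against 10.01, 9.95 and 9.96 in wild type samples 1, 2 and 3, with wild type sample 4 between these. The wild type samples lay close together (SD 0.03) and the knockout samples were spread out (SD 0.13), and knockout sample 4 lay within the wild type range. The difference was -0.16 (SE 0.068, interval -0.31 to -0.01, limma adjusted p = 0.590).

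Bcat2, the transaminase that opens the pathway, read 9.87, 9.91, 9.98 and 9.92 in the knockout samples and 10.09, 9.98, 10.09 and 9.91 in the wild type samples. Wild type samples 1 and 3 were high, while samples 2 and 4 lay within the knockout range. The difference was -0.10 (SE 0.061, 95% interval -0.23 to 0.04, limma adjusted p = 0.760).

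Of the later enzymes, the 3 of leucine breakdown differed by -0.30 to -0.13 and Acadsb of isoleucine breakdown by -0.07; whether these differ from each other was not tested. Ivd, the isovaleryl-CoA dehydrogenase, read 10.94, 10.81, 11.10 and 10.98 in the knockout samples and 11.26, 11.22, 11.28 and 11.25 in the wild type samples. The wild type samples spanned a narrow range (SD 0.02), and every knockout sample lay below it, with knockout sample 3 closest and knockout sample 2 farthest. The difference was -0.30 (SE 0.065, 95% interval -0.44 to -0.15), which put knockout muscle at 81.5% of wild type, and it did not pass over all genes (limma adjusted p = 0.176). Mccc1, the biotin-carrying subunit of methylcrotonyl-CoA carboxylase, read 10.38, 10.54, 10.56 and 10.46 against 10.71, 10.58, 10.69 and 10.50, and Mccc2, the other subunit, read 9.93, 9.94, 9.84 and 9.95 against 10.11, 10.01, 10.18 and 9.93. In both subunits wild type samples 1, 2 and 3 lay above every knockout sample and wild type sample 4 lay among them. The differences were -0.13 (SE 0.067) for Mccc1 and -0.14 (SE 0.066) for Mccc2, with limma adjusted p-values of 0.669 and 0.634. Acadsb, the short and branched-chain acyl-CoA dehydrogenase of the isoleucine arm, read 11.36, 11.38, 11.49 and 11.42 against 11.53, 11.53, 11.49 and 11.36, a difference of -0.07 (SE 0.061, adjusted p = 0.851) with overlapping samples.

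Single samples differed in how much of the list they carried low. In knockout samples 2 and 4 all 10 genes lay below their wild type means, in knockout sample 1 it was 9 and in knockout sample 3 it was 8. In wild type samples 1 to 4 the numbers were 0, 8, 4 and 7. Wild type sample 4 lay within or below the knockout range for Bcat2, Bckdha, Bckdk, Acadsb, Mccc1 and Mccc2, and well above it for Bckdhb, Dbt and Ivd. The mean over the 10 genes was 10.57 to 10.63 in the knockout samples and 10.71 to 10.82 in the wild type samples. The SD within a genotype ran from 0.02 (Ivd, wild type) to 0.13 (Ppm1k, knockout), and the median gene of the array had a within-genotype SD of 0.10. The mean signal of each of the 10 genes lay at or above the 79.1th percentile of all genes, so none was dim.

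With the genotype means taken out, the 10 genes varied together in some pairs and not in others. Pairs of other genes were not compared, and each correlation over 8 arrays is imprecise. Over the 45 pairs of genes, the correlation of the deviations on the 8 arrays was above 0 in 29 and had a median of 0.18; the arrays share labelling and normalization, so these values are a description. It was highest between Bcat2 and Mccc1 (0.91), Bcat2 and Acadsb (0.78), Bckdhb and Bckdk (0.74) and Acadsb and Mccc1 (0.72). Bckdhb and Dbt, partners in the complex, gave -0.19, and Bckdhb and Ivd gave -0.11. Of all genes outside the list, the 5 whose deviations were most like those of Bckdhb on the 8 arrays were Mir30d (0.99), Tomm5 (0.99), Vps33b (0.99), Zfp148 (0.98) and Cwf19l2 (0.98). These 5 were picked as the highest of all such correlations, so their size comes with the search and does not show that they vary with Bckdhb. Mir30d hardly varied within a genotype (SD 0.02). The differences of these 5 genes between the genotypes lay between -0.10 (Tomm5) and 0.13 (Cwf19l2), with limma adjusted p-values of 0.750 or higher.

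The rest of the pathway was read from 41 further genes. None passed over all genes in limma. At an unadjusted p under 0.05, 5 were lower (Aldh6a1, Echs1, Klf15, Mcee and Slc7a8) and 1 was higher (Hlcs), against 3.18% and 4.72% of all genes. Of the 41, 23 had a lower and 18 a higher mean, and the median difference was -0.01, near that of all genes.

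Aldh6a1, the methylmalonate semialdehyde dehydrogenase that closes the valine arm, read 11.99, 12.05, 12.12 and 12.16 in the knockout samples and 12.32, 12.28, 12.52 and 12.32 in the wild type samples. The groups did not overlap, and the difference was -0.28 (SE 0.068, limma adjusted p = 0.232). Echs1, the enoyl-CoA hydratase shared with fatty acid oxidation, read 10.76, 10.85, 10.74 and 10.81 against 10.99, 11.01, 11.11 and 10.95. These groups did not overlap either (difference -0.22, SE 0.058, adjusted p = 0.264). Every knockout sample lay below every wild type sample in these 2 of the 41 further genes, against 1.99% of all genes. The other genes of the valine arm lay between -0.10 (Hibadh) and 0.09 (Hibch). Of the other genes listed for the leucine and isoleucine arms, Hsd17b10 differed by -0.13, Hadh by 0.02 and Acaa2 by 0.05. Auh differed by 0.19 (SE 0.124), Acat1 by 0.03 and Oxct1 by -0.08.

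Of the 8 genes of the propionyl-CoA arm, through which isoleucine and valine reach the citrate cycle, 6 had a lower mean, against 48.6% of all genes. The largest difference was that of Mcee, the methylmalonyl-CoA epimerase, at -0.17 (SE 0.071, limma adjusted p = 0.561), and that of the mutase Mmut was -0.14 (SE 0.109). The electron acceptors Etfa, Etfb and Etfdh, which take electrons from Ivd and Acadsb, lay between -0.01 and 0.01. Hlcs, which attaches biotin to carboxylases, differed by 0.14 (SE 0.063, adjusted p = 0.609). The amino acid transporter Slc7a8 differed by -0.21 (SE 0.093, adjusted p = 0.611) and the mitochondrial branched-chain amino acid carrier Slc25a44 by -0.02 (SE 0.069). Of the 6 regulators, 5 had a lower mean, against 48.6% of all genes, and only 1, Klf15, had an unadjusted limma p under 0.05. Klf15, a transcription factor known to drive genes of branched-chain amino acid breakdown in muscle, read 9.56, 9.32, 9.64 and 9.44 in the knockout samples and 9.78, 9.68, 9.79 and 9.57 in the wild type samples. Knockout sample 3 lay above wild type sample 4, and the difference was -0.22 (SE 0.080, adjusted p = 0.479). Ppargc1a, the coactivator of mitochondrial genes, differed by 0.06 (SE 0.066).

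**Figure D3:**
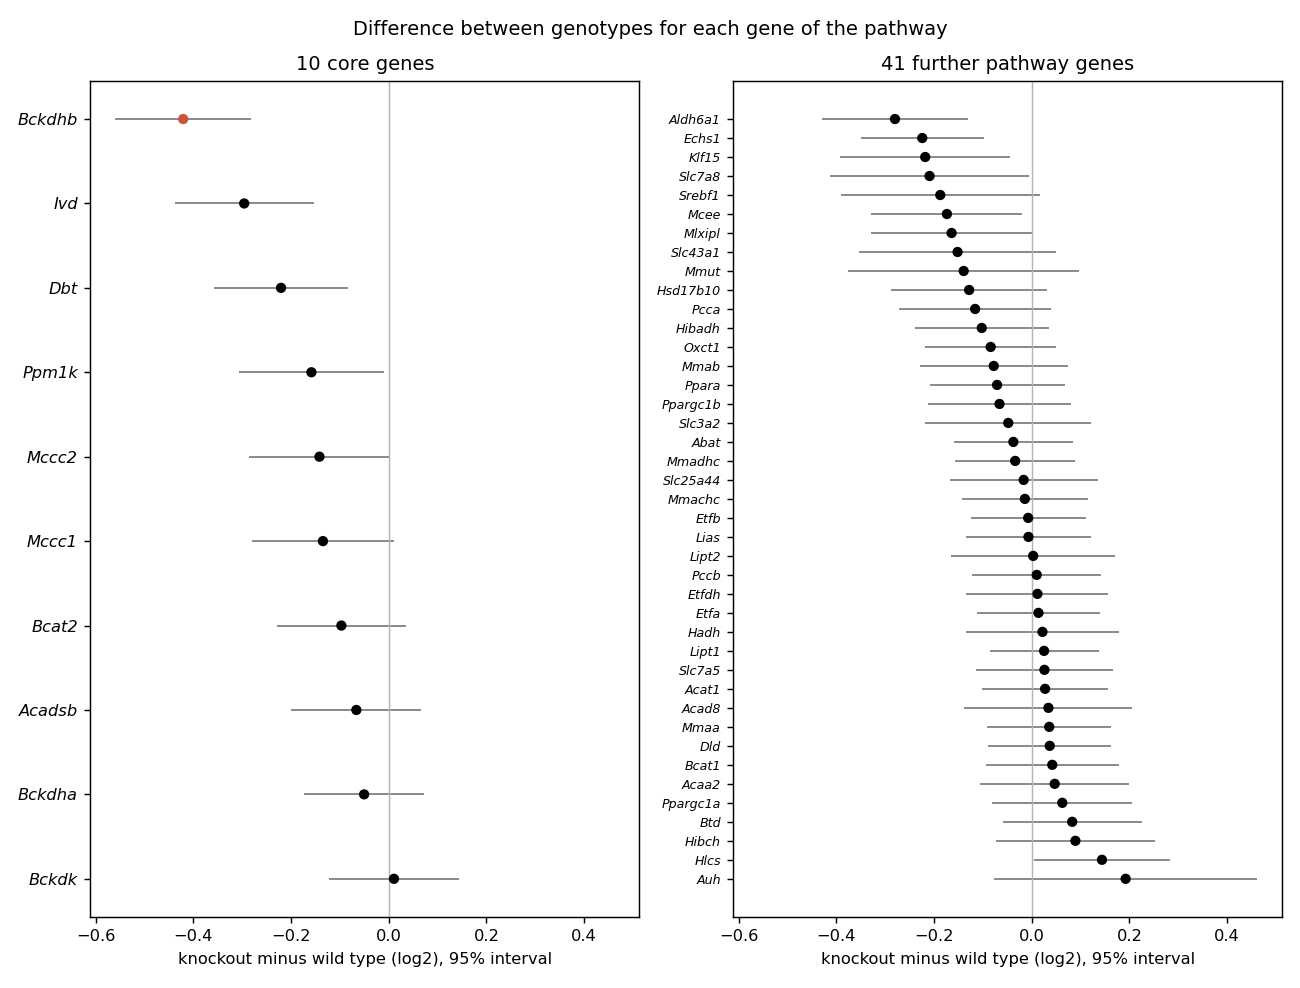
Knockout minus wild type difference (log2) with limma's 95% interval for the 10 genes (left) and for 41 further genes of branched-chain amino acid breakdown (right), ordered by size. Bckdhb, in red, alone had an adjusted p under 0.05 over all genes.

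The sister complexes, pyruvate and oxoglutarate dehydrogenase, also hold a decarboxylase, a core acyltransferase and a dehydrogenase. Of their 12 genes none passed over all genes in limma. In knockout muscle 9 had a higher mean, against 10244 of all 19938 genes, and the median difference was 0.05. At an unadjusted p under 0.05, 1 was higher and 0 were lower, against 4.72% and 3.18% of all genes. The higher gene was the pyruvate dehydrogenase kinase Pdk4 at 0.39 (SE 0.138, adjusted p = 0.462). Pdhb, the counterpart of Bckdhb in the pyruvate complex, differed by -0.003 (SE 0.058), and Dlat, the counterpart of Dbt, by 0.12 (SE 0.055, adjusted p = 0.634). In 3 of the 12 genes, Dlat, Dlst and Pdk3, every knockout sample lay above every wild type sample, which held for 2.91% of all genes. In 1, the pyruvate dehydrogenase phosphatase Pdp1 (-0.11, SE 0.058), every knockout sample lay below, which held for 1.99% of all genes. Among the 5 acyl-CoA dehydrogenases related to Ivd and Acadsb, Gcdh of lysine breakdown differed by -0.19 (SE 0.062, adjusted p = 0.409). For Gcdh, 1 of these 5, every knockout sample lay below every wild type sample, against 1.99% of all genes. Acads, Acadm, Acadl and Acadvl lay between -0.004 and 0.07. Differences between these genes and the 10 were not tested.

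The 10 genes lie on 6 chromosomes, with Bcat2, Bckdha, Bckdk and Acadsb on chromosome 7 and Bckdhb on chromosome 9. The 5 measured protein-coding genes on each side of Bckdhb, in the gene order of GRCm38.p6, had differences from -0.06 (Tpbg) to 0.23 (Elovl4). None of these 10 neighbours passed over all genes in limma. Only 1, Tent5a, had an unadjusted p under 0.05, with a higher mean in knockout muscle (0.22, SE 0.095), against 4.72% of all genes.

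Genes of slow fibres also had lower means with the knockout. In whole muscle, fewer cells of a type and less RNA per cell cannot be told apart. All 8 slow fibre markers were lower on average (median difference -0.59) and 0 passed over all genes in limma, with the smallest adjusted p at 0.0763. All 8 were lower at an unadjusted p under 0.05, against 3.18% of all genes. Myh7, the slow myosin, differed by -0.76 (SE 0.199) and Tnnc1, the slow troponin C, by -0.76 (SE 0.132). The mean of the 8 was 10.83, 11.26, 11.50 and 11.31 in knockout samples 1 to 4 and 11.58, 11.99, 12.00 and 11.69 in wild type samples 1 to 4. Every knockout sample lay below every wild type sample in this mean, as for Bckdhb, Dbt and Ivd. That split also held for 6 of the 8 single markers, against 1.99% of all genes. Within a genotype, neither Bckdhb, Dbt nor Ivd had its samples in the order of this mean. The part of slow fibres in the differences was not tested. The 7 skeletal fibre markers, Ckm and fast fibre genes among them, differed by -0.05 to -0.01, all with a lower mean. For Tnnt3 and Tnni2 every knockout sample lay below every wild type sample, which held for 1.99% of all genes. The 7 lay at or above the 99.8th percentile of signal, and whether signals so high can show a change was not tested.

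**Figure D4:**
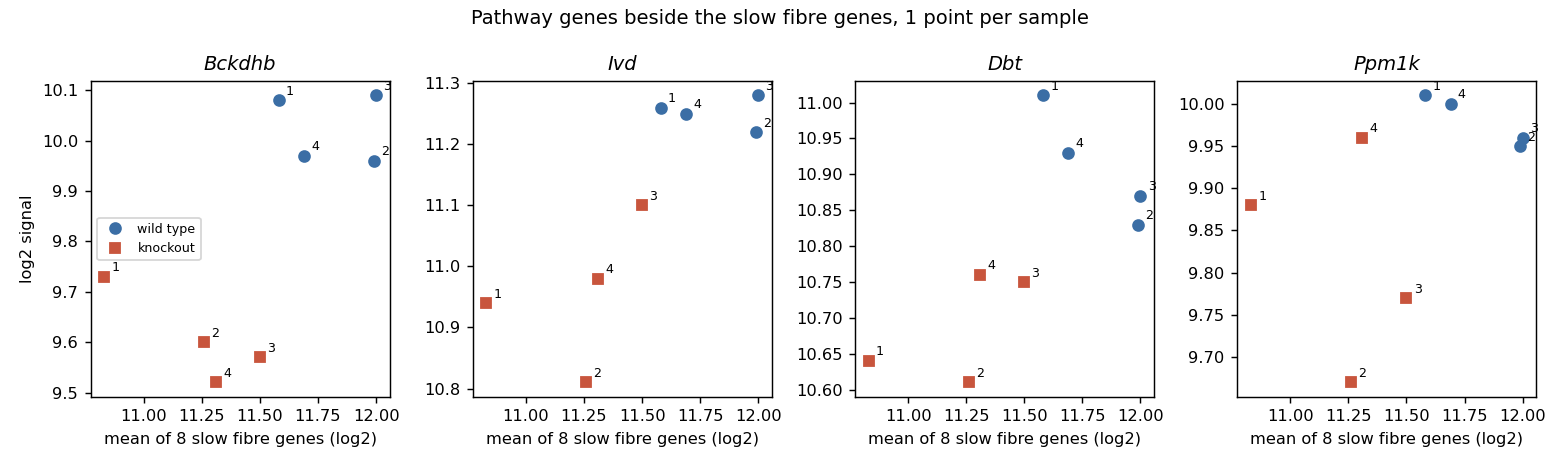
Log2 signal of Bckdhb, Ivd, Dbt and Ppm1k (vertical axes, each with its own range) beside the mean log2 signal of 8 slow fibre genes (horizontal axes), with 1 numbered point per sample, wild type as circles and knockout as squares. On the horizontal axes the knockout samples (10.83 to 11.50) lie below the wild type samples (11.58 to 12.00).

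Markers of other cells also differed, none past the limma test over all genes. At an unadjusted p under 0.05, 7 macrophage and 4 fibroblast markers were higher, against 4.72% of all genes. At the same cut 3 tendon markers and 1 Schwann cell marker were lower, against 3.18% of all genes. A lower mean, whatever its p, was found in 48.6% of all genes. Of 10 macrophage markers 9 had a higher mean in knockout muscle (median difference 0.30), with a summed level, as the mean of the markers, of 8.47 to 8.80 in knockout and 8.21 to 8.55 in wild type samples. Of 8 fibroblast markers 7 had a higher mean (10.38 to 10.80 against 10.27 to 10.59), all 6 tendon markers had a lower mean (8.93 to 9.34 against 9.17 to 9.54), and so had all 3 measured Schwann cell markers (8.74 to 9.08 against 8.99 to 9.39). Endothelial markers spanned 10.16 to 10.48 and 10.22 to 10.37. Adipocyte markers varied most among wild type samples, from 8.21 in sample 3 to 10.07 in sample 2. In wild type samples 1 to 4 the adipocyte mean was 9.21, 10.07, 8.21 and 9.09, and in knockout samples 1 to 4 it was 8.97, 9.10, 9.32 and 9.22. The part of these cells in the differences was not tested.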

How the data were processed

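Gastrocnemius RNA samples, 4 of Hdac5 knockout and 4 of wild type mice, were measured on 8 Affymetrix gene arrays; per the labels, 150 ng of RNA with an integrity number above 8 was amplified and biotin-labelled. The deposited values are log2 signals per probe set, made by the authors with Affymetrix Expression Console 4.0, per the submitters' processing notes. Their background correction, summarisation, normalization and genome build are not given in the sources used. That the scale is log2 was read from the values.

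The platform annotation gave 1 gene symbol for 21789 of 35556 probe sets, several for 1621 and none for 12146; the brightest probe set per gene gave 19938 genes. No further normalization was applied. The genotypes were compared with limma 3.58.1 in R 4.3.3 (lmFit, eBayes, genotype as the only term), with Benjamini-Hochberg adjustment over all 19938 genes and a threshold of 0.05; SE and 95% intervals are limma's. The test was tested on simulated data. Python 3.11.15 with matplotlib 3.10.9 drew the figures.

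The genes of the pathway, the further lists and the markers were chosen with earlier results of these data known. Named are the 10 genes, Hdac5, further pathway genes with an unadjusted p under 0.05, and the 5 genes most like Bckdhb in their deviations; others named were picked after their values were seen. Knockout and wild type titles share the numbers 1 to 4, but the deviations of same-numbered samples did not all correlate, so the samples were not treated as pairs. The alternatives were 2 normalizations, a trended and robust eBayes, array weights, a filter on dim genes (under the 25th percentile), the mean of all probe sets, a replicate block and leaving out each sample. Leaving out both knockout sample 1 and wild type sample 4 was added after the data had been seen.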

Additional observations from a re-analysis of the deposited data

Results flagged for a closer look

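In the knockout group, sample 3 stood below the other 3 samples for Mccc2, at 9.84 against 9.93 to 9.95, a gap of 0.838 of the group's range, above Dixon's 95% critical value. It was the only such sample among 20 groups of 4 examined, and chance marks about 1 group in 20.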

How the results depend on the processing

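Bckdhb remained lower under all 16 alternatives, with differences from -0.48 to -0.39. It passed the threshold under quantile normalization, the trended and robust eBayes, array weights, the filter on dim genes and the mean of all probe sets, and in 1 of the 8 fits without 1 sample. The number of the 10 genes that passed was 0 with arrays centred on their medians (Bckdhb -0.43, adjusted p = 0.0531) and 0 with knockout sample 1 and wild type sample 4 both left out (Bckdhb -0.48, adjusted p = 0.0647). Without 1 sample the number was 0 to 1 and the Bckdhb difference -0.46 to -0.39. With the replicate block the Bckdhb difference was -0.42 (adjusted p = 0.0402), 1 of the 10 genes and 0 of the further pathway genes passed, so that no call among these genes changed; same-numbered samples correlated in their deviations at 0.34, -0.11, -0.15 and 0.34 for numbers 1 to 4, so that 2 of the 4 were not best matched with their own number. Over all genes 13 passed, 30 with the block, and 5 to 44 across the alternatives. Bckdk ran from -0.023 to 0.045 in the fits without 1 sample, with its sign turned by leaving out knockout sample 1 (-0.023) or wild type sample 2 (-0.010), and was -0.015 with knockout sample 1 and wild type sample 4 both left out; the cause was not tested. The other 8 genes kept their direction and passed under none of the alternatives, with the smallest adjusted p, 0.0658, for Ivd. No further pathway gene passed under any of them. With 4 arrays per genotype and no file of raw intensities used here, the signal over background could not be set beside these values.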
